A study of Mus musculus with 6 samples.

Results

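The SLC25 family of mitochondrial carriers comprised 47 of the 54532 genes listed, taken as every protein-coding gene whose symbol begins with Slc25. They were examined by RNA-seq in mouse bone marrow-derived macrophages, which are grown in culture from marrow progenitors. One group came from NSUN2-KO mice and the other from NC mice, with 3 libraries each, and the labels do not tie a library to an animal. The design text gives 3 biological replicates per group where it describes the mice but 2 per condition where it describes the authors' differential analysis, so whether the 3 libraries of a group are 3 independent samples is uncertain. Each SD, n = 3 and p-value given here treats them as such. All cells had been brought to the inflammatory M1 state with LPS and IFN-γ, so no unstimulated macrophages were examined. NSUN2 is an enzyme that methylates cytosines in tRNAs and in some other RNAs. The labels leave unstated the strain and age of the mice, how the knockout was made and what NC stands for. The comparison asks how the M1 transcriptome of NSUN2-KO macrophages differed from that of NC macrophages, here for the carriers grouped by the substrate they are known to move.

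SLC25 proteins sit mostly in the inner mitochondrial membrane, which is impermeable to charged metabolites, and move nucleotides, phosphate, carboxylates, amino acids, cofactors and metal ions between the cytosol and the matrix. They share a fold of repeated membrane helices and differ in the residues that line the substrate site. In inflammatory macrophages, where citrate, malate, aspartate and arginine are diverted into biosynthesis and signalling, they stand at the border between the matrix and the pathways that use these metabolites.

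The libraries held 35019033 to 40105614 reads in NSUN2-KO and 38516800 to 45636131 in NC, recovered from the deposited FPKM values. These values scale fragments by gene length and by a factor for each library. The recovered reads were 98.9% to 99.8% of the total that this factor implies, and no source states how it was set. The median-ratio factor of the deposited values was 1.004 in every library, so they were already on a common median-ratio scale. Values of single libraries are given in the order of replicates 1 to 3. Nsun2 measured 0.967, 1.36 and 0.863 FPKM in NSUN2-KO, against 1.88, 2.04 and 1.84 FPKM in NC, so that NSUN2-KO retained 55.4% of the NC level of this mRNA. Ddx3y, Eif2s3y, Uty and Kdm5d, which lie on the Y chromosome, had 0 reads in every NSUN2-KO library and 316 to 1587 reads each in every NC library, and Xist averaged 30.6 ± 1.20 FPKM in NSUN2-KO and 14.5 ± 0.881 FPKM in NC (SD, n = 3 each). Each NC library thus held both Y-linked reads and Xist, while each NSUN2-KO library held Xist without Y-linked reads. The groups differed in sex make-up as these genes show it, and for every contrast given here the knockout and this difference cannot be told apart. All 7 macrophage markers averaged at least 1 FPKM, with 3 lower and 0 higher in NSUN2-KO, and their sum was 3116 to 3160 FPKM in NSUN2-KO and 3726 to 3813 FPKM in NC. Of 9 neutrophil markers 5 averaged at least 1 FPKM, 3 were lower and 1 was at 0 reads everywhere, and the sum was 79.7 to 83.5 FPKM in NSUN2-KO and 98.6 to 106.6 FPKM in NC. Of 5 dendritic cell markers 2 averaged at least 1 FPKM and 1 was higher, with a sum of 8.10 to 9.23 FPKM in NSUN2-KO and 4.94 to 5.99 FPKM in NC. By the same calls, 4.30% of all genes tested were lower in NSUN2-KO and 4.19% were higher. No marker of fibroblasts (of 4), T and NK cells (of 6), B cells (of 5) or erythroid cells (of 5) averaged 1 FPKM or more, and 3 erythroid markers and 1 of T and NK cells were at 0 reads everywhere. Fibroblast markers summed to 0.631 to 0.833 FPKM in NSUN2-KO and 1.41 to 1.56 FPKM in NC. Whether other cell types had a part in the differences was not tested, and in bulk RNA fewer cells of a type and less RNA per cell cannot be told apart.

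Of the 47 carriers, 28 averaged at least 1 FPKM over the 6 libraries and were tested. Slc25a5, the main ADP/ATP carrier of proliferating cells, was the most abundant in every library, at 61.7 ± 4.55 FPKM in NSUN2-KO and 66.7 ± 1.58 FPKM in NC. Next by mean level came Slc25a37, which carries iron, at 38.8 ± 2.50 FPKM in NSUN2-KO and 35.7 ± 1.35 FPKM in NC. Slc25a11, the oxoglutarate/malate carrier, followed at 35.2 ± 1.63 FPKM in NSUN2-KO and 36.9 ± 0.931 FPKM in NC, and its values overlapped those of Slc25a37 in both groups, so their order is not resolved. The 10 most abundant carriers of each group had 8 in common. In all, 15 carriers averaged 10 FPKM or more and 13 averaged 1 to 10 FPKM. The summed level of the 47 carriers was 398.1, 395.5 and 383.0 FPKM in NSUN2-KO, against 405.4, 413.1 and 407.5 FPKM in NC. The sum was lower in each NSUN2-KO library than in any NC library (exact two-sided permutation p = 0.1, the smallest that 3 against 3 libraries allow). The top 5 carriers by mean level made up 46.9% of the sum in NSUN2-KO and 47.2% in NC. Of the 28 tested, 11 had a positive fold change, so the sum does not describe each carrier.

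**Figure D1:**
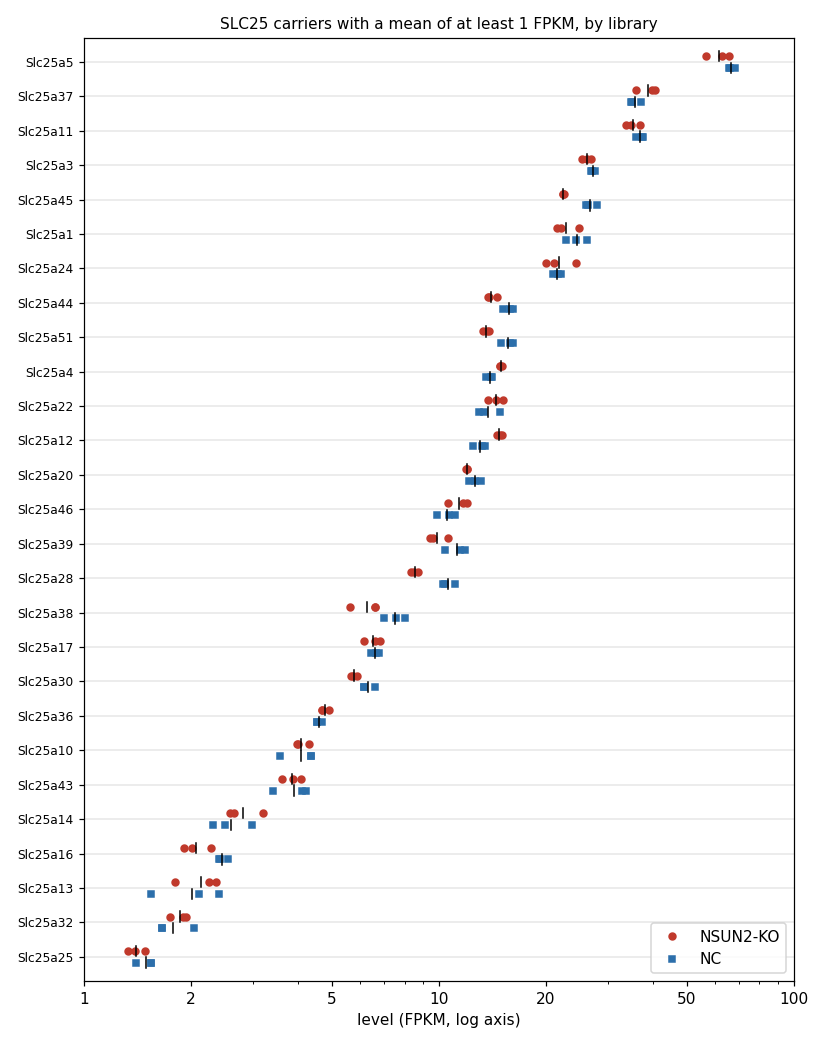
Level of tested SLC25 carriers in FPKM on a log axis, with 1 point per library (NSUN2-KO above NC) and a black tick at each group's mean. Slc25a5 stands at the top with a mean of 61.7 FPKM in NSUN2-KO and 66.7 FPKM in NC.

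The groups were compared by limma on log2(FPKM + 1), with p-values adjusted by Benjamini-Hochberg over all 9443 genes tested. Of the 28 carriers, 1 was called higher in NSUN2-KO, against 4.19% of all genes tested. A further 3 were called lower, against 4.30% of all genes. With 3 libraries per group, a carrier without a call is not thereby shown to be unchanged. In either direction 4 of 28, or 14.3%, passed an adjusted p of 0.05, against 8.49% of all genes tested. Slc25a28, Slc25a45 and Slc25a51 were lower and Slc25a12 was higher. The log2 fold changes of the 28 ran from -0.28 to 0.17, and 25 of them were smaller than 0.2 in size. Their median was -0.06, against -0.0056 over all genes tested, and 17 of 28 (60.7%) were negative, against 51.8% of all genes. In 13 carriers (46.4%) the groups did not overlap, against 31.1% of all genes tested. Of these, 3 of 28 were higher in NSUN2-KO, against 14.4% of all genes, and 10 of 28 were lower, against 16.7% of all genes. An unadjusted limma p below 0.05 was found in 9 of 28 carriers (32.1%), against 25.5% of all genes tested. Slc25a45 passed in each of 18 alternative settings, whereas Slc25a28 passed in 16, Slc25a51 in 9 and Slc25a12 in 8. Rescaling by median ratios, 1 of the 18, could hardly differ from the fit as reported, since its factor was 1.004 in every library.

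**Figure D2:**
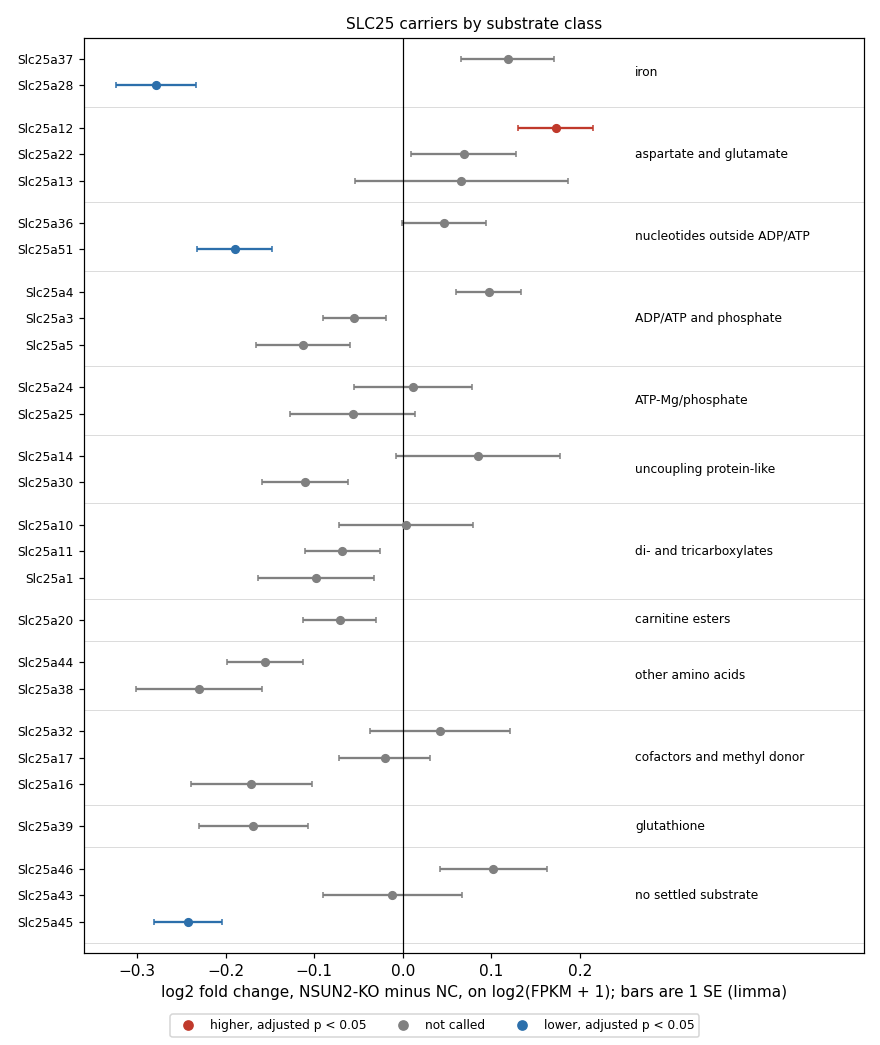
Log2 fold change of tested carriers (NSUN2-KO minus NC, on log2(FPKM + 1)) with bars of 1 SE from limma, grouped by substrate and coloured by call. Slc25a28, Slc25a45 and Slc25a51 lie to the left at -0.28, -0.24 and -0.19, and Slc25a12 to the right at 0.17.

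Sequence upstream of the transcription start was read for Slc25a28, Slc25a45 and Slc25a12, the called carriers found in the promoter table (RefSeq, GRCm38.p6), to show what lies in front of genes that moved in opposite directions. Each window is the 250 bases before the start, 5′ to 3′ on the gene's strand. The windows are chr19:43674882-43675131 on the minus strand for Slc25a28, chr19:5877572-5877821 on the plus strand for Slc25a45 and chr2:71367756-71368005 on the minus strand for Slc25a12. Capitals mark CCAAT (the CCAAT box), GGGCGG (the GC box), CCGGAAG (an ETS-type word), ACGTG (the core of a hypoxia response element) and the palindrome of nuclear respiratory factor 1, on either strand.
Slc25a28: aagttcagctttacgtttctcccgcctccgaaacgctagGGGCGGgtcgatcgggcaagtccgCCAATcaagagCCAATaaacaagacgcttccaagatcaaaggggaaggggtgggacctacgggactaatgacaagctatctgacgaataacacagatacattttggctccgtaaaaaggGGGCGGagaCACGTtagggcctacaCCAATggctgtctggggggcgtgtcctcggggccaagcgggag
Slc25a45: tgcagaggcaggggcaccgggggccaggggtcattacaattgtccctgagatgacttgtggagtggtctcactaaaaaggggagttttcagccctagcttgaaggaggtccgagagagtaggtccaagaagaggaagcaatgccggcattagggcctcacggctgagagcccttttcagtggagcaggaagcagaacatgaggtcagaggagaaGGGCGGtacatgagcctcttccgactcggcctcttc
Slc25a12: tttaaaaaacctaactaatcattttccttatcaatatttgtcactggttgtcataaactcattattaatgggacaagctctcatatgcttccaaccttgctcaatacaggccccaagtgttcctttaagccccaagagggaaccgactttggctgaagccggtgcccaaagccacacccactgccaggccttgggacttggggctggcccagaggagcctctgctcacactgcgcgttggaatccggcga
The Slc25a28 window held 3 CCAAT words, 2 GGGCGG words and 1 ACGTG word. The Slc25a45 window held 1 GGGCGG word, and the Slc25a12 window none of the 5 words. The table matched 22 of the 28 tested carriers, with 28 windows in all since a gene can have several starts. CCAAT stood in 42.9% of these windows, against 33.8% of all 32851 windows of this length, and GGGCGG in 67.9% against 32.7%. ACGTG stood in 32.1% against 16.6%, CCGGAAG in 17.9% against 6.91% and the nuclear respiratory factor 1 palindrome in 3.57% against 3.74%. The carriers had passed a filter on level, whereas the 32851 windows were not limited to expressed genes, so the shares are not matched for expression. A word is a match of letters and was not tested as a binding site.

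The mitoferrins Slc25a37 and Slc25a28 bring iron into the matrix for haem and iron-sulphur clusters, the first known mainly from red cell precursors and the other from most tissues. Slc25a28 (ENSMUSG00000040414, GRCm38 chromosome 19, positions 43663822 to 43674881, minus strand) measured 8.37, 8.53 and 8.72 FPKM in NSUN2-KO, against 10.3, 10.4 and 11.1 FPKM in NC. All NSUN2-KO values lay below all NC values, at 80.7% of the NC mean. The log2 fold change was -0.28 (SE 0.05, limma adjusted p = 0.0111), on 453 to 509 reads per NSUN2-KO library and 600 to 722 per NC library. The call was lost without NSUN2-KO replicate 1 (adjusted p = 0.0547) or NC replicate 3 (adjusted p = 0.0517). Slc25a37 measured 39.96, 35.96 and 40.6 FPKM in NSUN2-KO, against 37.2, 34.7 and 35.1 FPKM in NC, so that NSUN2-KO replicate 2 lay within the NC range (log2 fold change 0.12, SE 0.05, adjusted p = 0.209). Within each library the ratio of Slc25a37 to Slc25a28 was 4.78, 4.22 and 4.65 in NSUN2-KO, against 3.63, 3.33 and 3.17 in NC. The ratios did not overlap (exact two-sided permutation p = 0.1, and 0.2 when adjusted over 6 carrier pairs). Such a ratio shows unequal change of the pair, not which member moved. It was not corrected for GC content, which was 49.3% in Slc25a37 and 56.5% in Slc25a28. Among 7 tested genes of iron and haem handling (median log2 fold change -0.08) 0 were called by limma, and Alas1 and Hmox1 had an unadjusted p below 0.05 (0.0109 and 0.0440). Of all genes tested, 25.5% had such a p. Alas1, the first enzyme of haem synthesis, averaged 46.05 ± 0.702 FPKM in NSUN2-KO and 49.5 ± 0.799 FPKM in NC (adjusted p = 0.0851). Hmox1, which breaks haem down, averaged 1844 ± 64.7 FPKM in NSUN2-KO and 1739 ± 32.9 FPKM in NC (adjusted p = 0.182).

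Slc25a12 exports aspartate from the matrix in exchange for glutamate, is stimulated by cytosolic calcium and drives the malate-aspartate shuttle. Slc25a12 (ENSMUSG00000027010, GRCm38 chromosome 2, positions 71271063 to 71367749, minus strand) measured 14.8, 14.5 and 15.1 FPKM in NSUN2-KO, against 12.4, 13.5 and 13.2 FPKM in NC. Every NSUN2-KO value was above every NC value, at 113.6% of the NC mean (log2 fold change 0.17, SE 0.04, limma adjusted p = 0.0471). The call was lost without any 1 of the 6 libraries (adjusted p 0.0789 to 0.141). Its near relative Slc25a13, citrin, measured 2.36, 1.81 and 2.26 FPKM in NSUN2-KO, against 2.40, 2.10 and 1.54 FPKM in NC (adjusted p = 0.780). The ratio of Slc25a12 to Slc25a13 averaged 7.001 ± 0.921 in NSUN2-KO and 6.72 ± 1.72 in NC and overlapped (exact permutation p = 0.9). Slc25a22, which carries glutamate with protons, measured 15.2, 14.4 and 13.8 FPKM in NSUN2-KO, against 13.00, 14.9 and 13.4 FPKM in NC (adjusted p = 0.519). All 3 tested members of this class had a positive fold change, with overlapping groups in Slc25a13 and Slc25a22. The remaining member, Slc25a18, was too low to test at 0.156 to 0.433 FPKM in NSUN2-KO and 0.267 to 0.446 FPKM in NC. It overlaps Atp6v1e1, on the other strand at 38.2 FPKM over all libraries, by 32 bases. Whether counting used strand is not known, so the level of Slc25a18 is uncertain. Of the 6 tested genes of the shuttle and of glutamate supply (median log2 fold change -0.01), 1 was lower and 0 were higher. Of all genes tested, 4.30% were lower and 4.19% higher. The lower gene of the shuttle, the cytosolic malate dehydrogenase Mdh1, averaged 16.96 ± 0.711 FPKM in NSUN2-KO and 19.5 ± 0.449 FPKM in NC (adjusted p = 0.0315).

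Slc25a51 imports NAD into mammalian mitochondria. Slc25a51 (ENSMUSG00000045973, GRCm38 chromosome 4, positions 45395923 to 45408766, minus strand) measured 13.3, 13.7 and 13.8 FPKM in NSUN2-KO, against 15.8, 14.97 and 16.2 FPKM in NC. The NSUN2-KO values were all below the NC values, and NSUN2-KO stood at 86.8% of NC (log2 fold change -0.19, SE 0.04, limma adjusted p = 0.0335). Without 1 library the call was lost in 5 of 6 cases, at an adjusted p of 0.122, 0.0762 and 0.0636 without NSUN2-KO replicate 1, 2 or 3 and 0.0773 and 0.132 without NC replicate 1 or 3. Slc25a36, which carries pyrimidine nucleotides, measured 4.90, 4.70 and 4.70 FPKM in NSUN2-KO, against 4.68, 4.53 and 4.54 FPKM in NC (adjusted p = 0.594). It overlaps the antisense gene Gm16185, at 1.42 FPKM over all libraries, and whether counting used strand is not known, so its level is uncertain, likewise those of Slc25a11 and Slc25a25, which overlap Rnf167 and Naif1. Slc25a33, the other pyrimidine nucleotide carrier, averaged just below the limit for testing, at 1.16, 1.04 and 0.875 FPKM in NSUN2-KO, against 0.576, 0.741 and 1.39 FPKM in NC. NC replicate 3 held the highest Slc25a33 value and NC replicate 1 the lowest. Of 7 tested genes of pyrimidine and NAD supply (median log2 fold change 0.12), 3 were higher and 0 were lower, against 4.19% and 4.30% of all genes. Nampt, which makes the NAD precursor nicotinamide mononucleotide, averaged 194.1 ± 5.74 FPKM in NSUN2-KO and 158.7 ± 7.29 FPKM in NC (adjusted p = 0.00678). Nadk2, the mitochondrial NAD kinase, averaged 2.43 ± 0.160 FPKM in NSUN2-KO and 1.75 ± 0.144 FPKM in NC (adjusted p = 0.0353). Cmpk2, a mitochondrial pyrimidine kinase induced by interferon, averaged 1381 ± 9.16 FPKM in NSUN2-KO and 1225 ± 28.7 FPKM in NC (adjusted p = 0.0135).

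None of the 3 tested carriers of ADP, ATP and phosphate was called by limma, and 1 of them, Slc25a4, had an unadjusted p below 0.05 (0.0311). Of all genes tested, 25.5% had such a p. Slc25a4, the ADP/ATP carrier prominent in heart and muscle, measured 14.9, 14.9 and 15.03 FPKM in NSUN2-KO, against 14.04, 14.1 and 13.5 FPKM in NC (log2 fold change 0.10, adjusted p = 0.149). Slc25a5 measured 62.8, 65.6 and 56.7 FPKM in NSUN2-KO, against 65.6, 68.5 and 65.9 FPKM in NC (log2 fold change -0.11, adjusted p = 0.234). In Slc25a4 all NSUN2-KO values were above NC, and in Slc25a5 all were below, though replicate 2 of NSUN2-KO lay next to replicate 1 of NC. The Slc25a4 to Slc25a5 ratio was 0.237, 0.227 and 0.265 in NSUN2-KO, against 0.214, 0.206 and 0.205 in NC, without overlap (exact permutation p = 0.1, and 0.2 when adjusted over 6 carrier pairs). Reads shared among ADP/ATP carrier copies make both levels uncertain, since the labels do not say how such reads were counted. Slc25a3, which imports the phosphate used for ATP synthesis, measured 26.1, 26.8 and 25.3 FPKM in NSUN2-KO, against 27.5, 26.9 and 26.9 FPKM in NC (adjusted p = 0.384). Slc25a31, the ADP/ATP carrier of the male germ line, had 0 to 3 reads per NSUN2-KO library and 4 to 14 per NC library. The class summed to 103.8, 107.2 and 97.04 FPKM in NSUN2-KO, against 107.3, 109.5 and 106.5 FPKM in NC, and the groups overlapped. Of 8 tested genes that handle adenine nucleotides (median log2 fold change 0.22), 4 were higher and 1 was lower, against 4.19% and 4.30% of all genes. Vdac1, the outer membrane channel through which these nucleotides pass, averaged 66.4 ± 1.20 FPKM in NSUN2-KO and 51.00 ± 0.437 FPKM in NC (log2 fold change 0.37, adjusted p = 0.000623). Hk2, hexokinase 2, measured 17.4, 16.2 and 17.4 FPKM in NSUN2-KO, against 11.4, 11.5 and 11.1 FPKM in NC (adjusted p = 0.000623). Ak4, an adenylate kinase of the matrix, averaged 12.8 ± 1.01 FPKM in NSUN2-KO and 7.36 ± 0.474 FPKM in NC (adjusted p = 0.00113).

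**Figure D3:**
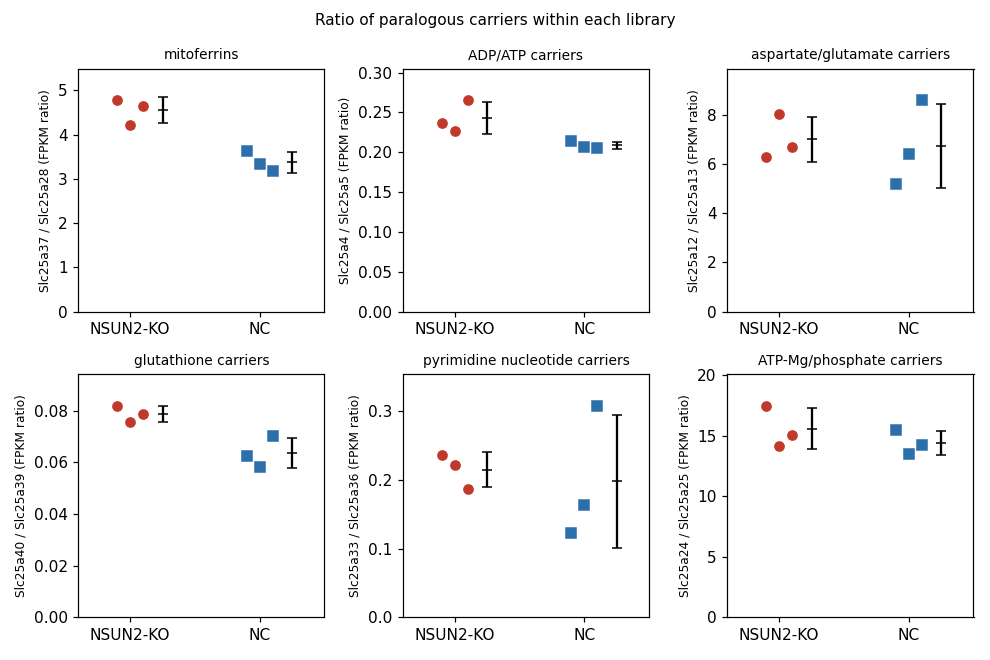
Ratio of the FPKM of paired carriers within each library, NSUN2-KO left of NC, with 1 point per library and the mean ± SD. The mitoferrin ratio was 4.22 to 4.78 in NSUN2-KO and 3.17 to 3.63 in NC, the ADP/ATP and glutathione carrier ratios also lay apart, and the other 3 pairs overlapped. Each pair that lay apart had an exact permutation p of 0.1, or 0.2 when adjusted over 6 pairs. The ratios were not corrected for GC content.

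The ATP-Mg/phosphate carriers adjust the adenine nucleotide pool of the matrix and are regulated by calcium. Slc25a24 measured 24.3, 21.1 and 20.01 FPKM in NSUN2-KO, against 21.6, 20.9 and 22.03 FPKM in NC (adjusted p = 0.935). Slc25a25 measured 1.39, 1.48 and 1.33 FPKM in NSUN2-KO, against 1.40, 1.55 and 1.54 FPKM in NC (adjusted p = 0.670). Both pairs of groups overlapped, and the ratio of Slc25a24 to Slc25a25 averaged 15.6 ± 1.69 in NSUN2-KO and 14.4 ± 0.978 in NC. Slc25a23 was detected at 0.334 to 0.503 FPKM in NSUN2-KO and 0.487 to 0.593 FPKM in NC, whereas its neighbour on chromosome 17, Slc25a41, had 4 reads in all, in NSUN2-KO replicate 3. Among the carriers related to uncoupling proteins, Slc25a30 measured 5.73, 5.89 and 5.66 FPKM in NSUN2-KO, against 6.14, 6.62 and 6.15 FPKM in NC, without overlap (adjusted p = 0.207). Slc25a14 measured 2.64, 3.20 and 2.58 FPKM in NSUN2-KO, against 2.31, 2.97 and 2.50 FPKM in NC, with overlap (adjusted p = 0.622). Of the SLC25-fold proteins under other names (median log2 fold change -0.15), 2 of 3 tested were lower and 0 were higher. Of all genes tested, 4.30% were lower and 4.19% higher. Ucp2, the uncoupling protein of leukocytes, measured 26.8, 27.9 and 26.6 FPKM in NSUN2-KO, against 30.2, 32.2 and 32.7 FPKM in NC (log2 fold change -0.22, limma adjusted p = 0.0209). Mtch1, a relative in the outer membrane, averaged 32.4 ± 0.315 FPKM in NSUN2-KO and 36.2 ± 1.11 FPKM in NC (adjusted p = 0.0364).

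Carriers of di- and tricarboxylates move citrate, malate, succinate and oxoglutarate. Limma called 0 of 3 tested members, and 0 had an unadjusted p below 0.05, against 25.5% of all genes tested. Slc25a1, which exports the citrate that feeds fatty acid synthesis, measured 24.8, 21.6 and 22.01 FPKM in NSUN2-KO, against 22.8, 26.1 and 24.4 FPKM in NC (adjusted p = 0.401). Slc25a11 measured 33.7, 36.9 and 34.8 FPKM in NSUN2-KO, against 35.8, 37.5 and 37.3 FPKM in NC (adjusted p = 0.362). Slc25a10, the dicarboxylate carrier, measured 4.30, 3.98 and 4.01 FPKM in NSUN2-KO, against 3.56, 4.36 and 4.36 FPKM in NC (log2 fold change 0.0037, SE 0.08). The groups overlapped in all 3. Slc25a21, the oxodicarboxylate carrier, had 6 reads over the 6 libraries. Of 8 tested genes that handle citrate, malate and itaconate (median log2 fold change -0.0094), 3 were higher and 0 lower, against 4.19% and 4.30% of all genes. Acod1, which makes itaconate from aconitate in activated macrophages, averaged 2719 ± 71.1 FPKM in NSUN2-KO and 2279 ± 23.3 FPKM in NC (log2 fold change 0.25, adjusted p = 0.00367). Me2, the mitochondrial malic enzyme, averaged 20.6 ± 0.270 FPKM in NSUN2-KO and 17.3 ± 0.192 FPKM in NC (adjusted p = 0.00681). Me1, the cytosolic malic enzyme, averaged 4.70 ± 0.244 FPKM in NSUN2-KO and 3.32 ± 0.439 FPKM in NC (adjusted p = 0.0249).

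Slc25a20 exchanges acylcarnitines for carnitine during fatty acid oxidation. It measured 12.02, 12.01 and 11.9 FPKM in NSUN2-KO, against 12.2, 12.6 and 13.1 FPKM in NC, without overlap (log2 fold change -0.07, SE 0.04, adjusted p = 0.328). Of 9 tested genes of carnitine handling and fatty acid oxidation (median log2 fold change -0.02), 0 were called by limma, and Cpt1a, which loads fatty acids onto carnitine, had the smallest unadjusted p (0.0485).

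The 2 tested carriers of amino acids other than aspartate and glutamate had negative fold changes and groups that did not overlap. Limma called 0 of them, and both had an unadjusted p below 0.05. Over all genes tested, 31.1% had groups that did not overlap and 25.5% had such a p. Slc25a38, which imports glycine for haem synthesis, measured 5.63, 6.61 and 6.60 FPKM in NSUN2-KO, against 7.02, 8.01 and 7.58 FPKM in NC (log2 fold change -0.23, SE 0.07, adjusted p = 0.0905). Slc25a44, which imports branched-chain amino acids, measured 13.7, 13.8 and 14.5 FPKM in NSUN2-KO, against 15.2, 16.2 and 15.9 FPKM in NC (log2 fold change -0.16, SE 0.04, adjusted p = 0.0661). Slc25a38 passed in limma voom on recovered reads (adjusted p = 0.0442). Slc25a44 passed with a filter at 5 FPKM (adjusted p = 0.0450) and among protein-coding genes only (adjusted p = 0.0484). The ornithine carrier Slc25a15 lay at 0.426 to 0.456 FPKM in NSUN2-KO and 0.376 to 0.519 FPKM in NC, and Slc25a29, which carries arginine and lysine, at 0.0817 to 0.115 FPKM in NSUN2-KO and 0.0838 to 0.139 FPKM in NC. Slc25a2, a further ornithine carrier, had 20 reads in all and was at 0 reads in 3 libraries. Of 6 tested arginine and ornithine genes (median log2 fold change 0.09), 3 were higher and 0 lower, against 4.19% and 4.30% of all genes. Slc7a2, the arginine importer of the plasma membrane, averaged 86.9 ± 5.13 FPKM in NSUN2-KO and 56.3 ± 2.12 FPKM in NC (adjusted p = 0.000623). Nos2, which makes nitric oxide from arginine, averaged 1644 ± 67.6 FPKM in NSUN2-KO and 1415 ± 25.8 FPKM in NC (adjusted p = 0.0141). Arg1, the cytosolic arginase, averaged 443.1 ± 12.2 FPKM in NSUN2-KO and 394.3 ± 6.71 FPKM in NC (adjusted p = 0.0191).

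Carriers of cofactors supply the enzymes of the matrix and of peroxisomes. Slc25a16, linked to coenzyme A transport through its yeast relative, measured 2.01, 2.27 and 1.92 FPKM in NSUN2-KO, against 2.54, 2.39 and 2.42 FPKM in NC, without overlap (adjusted p = 0.165). Slc25a17, which serves peroxisomes, measured 6.81, 6.62 and 6.13 FPKM in NSUN2-KO, against 6.76, 6.45 and 6.66 FPKM in NC (adjusted p = 0.846). Slc25a32, which carries folate and FAD, measured 1.74, 1.94 and 1.90 FPKM in NSUN2-KO, against 2.04, 1.66 and 1.66 FPKM in NC (adjusted p = 0.790). Of these, none was called by limma, and Slc25a16 had an unadjusted p below 0.05 (0.0369), as did 25.5% of all genes tested. Slc25a26, which imports the methyl donor S-adenosylmethionine, was too low to test at 0.299 to 0.497 FPKM in NSUN2-KO and 0.398 to 0.454 FPKM in NC, as was the coenzyme A carrier Slc25a42 at 0.0888 to 0.171 FPKM in NSUN2-KO and 0.116 to 0.145 FPKM in NC. Of 5 tested genes of folate and methyl groups (median log2 fold change -0.02), 1 was higher and 0 lower, against 4.19% and 4.30% of all genes. This was the mitochondrial folate enzyme Mthfd1l, at 6.54 ± 0.663 FPKM in NSUN2-KO and 3.68 ± 0.522 FPKM in NC (adjusted p = 0.00629).

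Slc25a39 imports glutathione into mitochondria, and Slc25a40 is its close relative. Slc25a39 measured 9.44, 10.6 and 9.61 FPKM in NSUN2-KO, against 11.4, 11.8 and 10.4 FPKM in NC, where NSUN2-KO replicate 2 exceeded NC replicate 3 (log2 fold change -0.17, SE 0.06, limma adjusted p = 0.134). With the GC and length trend of each library removed, its log2 fold change was -0.08 (adjusted p = 0.501). Slc25a40, below the limit for testing, measured 0.772, 0.802 and 0.756 FPKM in NSUN2-KO, against 0.716, 0.690 and 0.731 FPKM in NC. The ratio of Slc25a40 to Slc25a39 was 0.0818, 0.0756 and 0.0786 in NSUN2-KO, against 0.0626, 0.0583 and 0.07005 in NC, without overlap (exact permutation p = 0.1, and 0.2 when adjusted over 6 carrier pairs). GC content was 38.9% in Slc25a40 and 58.9% in Slc25a39, and over tested genes fold change fell as GC content rose (Spearman -0.39). The ratio was not corrected for this. Of 8 tested glutathione genes (median log2 fold change 0.06), 1 was higher and 2 were lower, against 4.19% and 4.30% of all genes. Slc7a11, the cystine importer, averaged 22.7 ± 0.977 FPKM in NSUN2-KO and 14.8 ± 0.558 FPKM in NC (adjusted p = 0.000623). The glutathione peroxidase Gpx1 averaged 328.7 ± 27.7 FPKM in NSUN2-KO and 410.9 ± 20.1 FPKM in NC (adjusted p = 0.0216). Gpx4, which clears lipid peroxides, averaged 48.3 ± 3.35 FPKM in NSUN2-KO and 56.2 ± 1.38 FPKM in NC (adjusted p = 0.0428).

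Among carriers grouped here as having no settled substrate, Slc25a45 was the only one called, and its call held in all 18 alternatives. Slc25a45 (ENSMUSG00000024818, GRCm38 chromosome 19, positions 5877808 to 5885766, plus strand) measured 22.5, 22.3 and 22.4 FPKM in NSUN2-KO, against 27.9, 26.3 and 25.9 FPKM in NC. The 3 NSUN2-KO values lay close together and below all NC values, at 83.9% of the NC mean, on 2073 to 2397 reads per NSUN2-KO library and 2689 to 3191 per NC library. The log2 fold change was -0.24 (SE 0.04, limma adjusted p = 0.0103, and 0.00225 to 0.0483 over the alternatives). Slc25a46, an outer membrane member known for its part in mitochondrial shape, measured 11.7, 11.96 and 10.6 FPKM in NSUN2-KO, against 11.1, 9.88 and 10.7 FPKM in NC (adjusted p = 0.341). Slc25a43, which lies 18448 bases from Slc25a5 on the X chromosome, measured 4.10, 3.88 and 3.62 FPKM in NSUN2-KO, against 4.23, 4.11 and 3.40 FPKM in NC (adjusted p = 0.944). The groups overlapped in both. With Slc25a5 and Slc25a14, Slc25a43 made 3 tested X-linked carriers. Of these, 0 were called by limma and 0 had an unadjusted p below 0.05, against 25.5% of all genes tested. The remaining X-linked carrier, Slc25a53, lay at 0.124 to 0.197 FPKM in NSUN2-KO and 0.218 to 0.276 FPKM in NC. Slc25a35 lay at 0.384 to 0.629 FPKM in NSUN2-KO and 0.366 to 0.660 FPKM in NC and Slc25a47 at 0.0764 to 0.161 FPKM in NSUN2-KO and 0.0585 to 0.208 FPKM in NC, both too low to test.

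The 19 carriers that were not tested had means between 0 and 0.965 FPKM. Of these, Slc25a27, Slc25a34, Slc25a2, Slc25a31, Slc25a54, Slc25a41, Slc25a21 and Slc25a48 averaged below 0.1 FPKM. Slc25a48 had 0 reads in all 6 libraries, where a floor of 3 reads per library allows up to 0.0194 to 0.0253 FPKM. In a fit with no filter, 18 of the 19 could be tested and 0 were called by limma, with 1 at an unadjusted p below 0.05 (lowest adjusted p = 0.248). In this fit 1.09% of all genes were called, and 3187 of 24414 had an unadjusted p below 0.05.

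Fold change moved with base composition in these libraries. Over the 28 tested carriers, the Spearman correlation between log2 fold change and transcript GC content was -0.42, and over 9433 tested genes it was -0.39. Genes within a library are not independent, and the points share the same 6 libraries. GC content ran from 39.3% in Slc25a36 to 59.5% in Slc25a1. After removal of each library's GC and length trend, the adjusted p was 0.0135 for Slc25a28, 0.0355 for Slc25a45, 0.0256 for Slc25a51 and 0.0417 for Slc25a12, so all 4 passed. Log2 fold changes nearer to 0 were given for Slc25a28 (-0.23, against -0.28 as reported) and Slc25a45 (-0.19 against -0.24). Those of Slc25a51 (-0.188 against -0.190) and Slc25a12 (0.166 against 0.172) moved little. The fold changes of several uncalled carriers also shifted. Values nearer to 0 were given for Slc25a39 (-0.08, against -0.17 as reported), Slc25a38 (-0.15 against -0.23), Slc25a44 (-0.10 against -0.16), Slc25a1 (-0.01 against -0.10) and Slc25a11 (-0.0062 against -0.07). The same held for Slc25a46 (0.06 against 0.10), Slc25a36 (0.02 against 0.05) and Slc25a25 (-0.02 against -0.06). Values farther from 0 were given for Slc25a22 (0.14 against 0.07), Slc25a10 (0.09 against 0.0037) and Slc25a17 (-0.04 against -0.02). None of these 11 uncalled carriers passed limma's threshold with or without the correction. The ratios of carrier pairs were not corrected in this way.

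The lists of partner and related genes were chosen with earlier results of these data known. Their counts, here and in the paragraphs above, describe the listed genes and give no independent support. Over all lists, each gene counted once, 16 of 94 tested were higher and 7 were lower. Over all genes tested, 4.19% were higher and 4.30% lower. Among other inner membrane transporters (median log2 fold change -0.15), 1 of 14 tested was lower and 0 were higher. This was Slc8b1, the mitochondrial sodium/calcium exchanger, at 65.2 ± 1.35 FPKM in NSUN2-KO and 73.2 ± 2.13 FPKM in NC (adjusted p = 0.0269). Of 9 tested genes of the machinery that inserts carriers into the inner membrane (median log2 fold change -0.05), 0 were called by limma. An unadjusted p below 0.05 was found for 0 of them, against 25.5% of all genes tested. Of 7 tested markers of mitochondrial content (median log2 fold change 0.04), Vdac1 and the matrix chaperone Hspa9 were higher and 0 were lower. Hspa9 averaged 24.3 ± 0.501 FPKM in NSUN2-KO and 21.9 ± 0.0526 FPKM in NC (adjusted p = 0.0377). Vdac1 was also counted among the genes that handle adenine nucleotides. Nrf1, on the same list as Hspa9, went the other way without a call. It averaged 2.81 ± 0.0988 FPKM in NSUN2-KO and 3.24 ± 0.0909 FPKM in NC, without overlap (limma unadjusted p = 0.0250, adjusted p = 0.132).

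**Figure D4:**
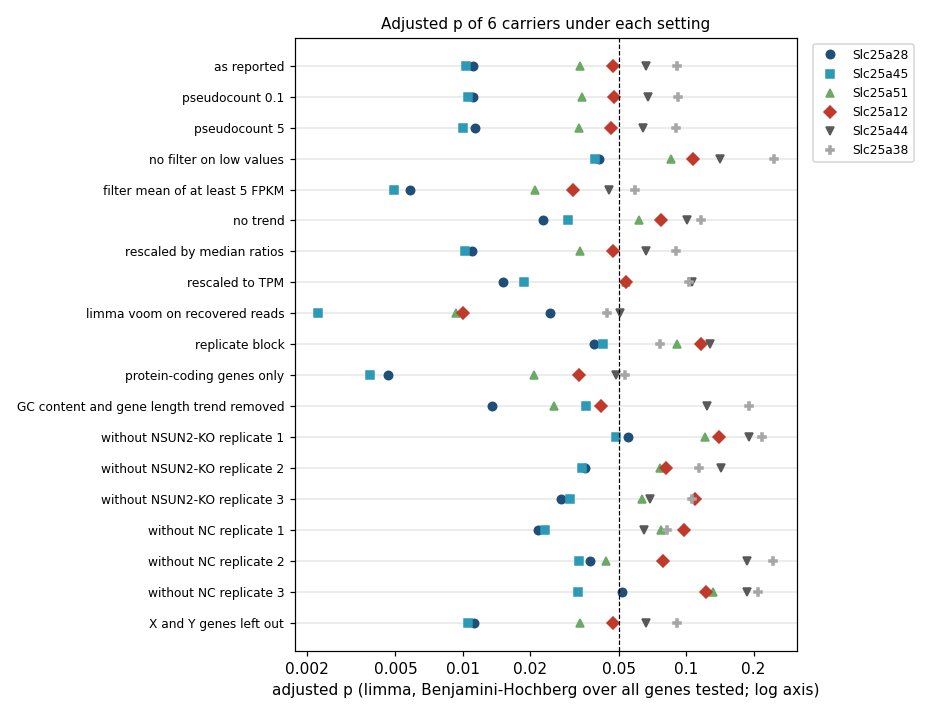
Adjusted p (limma, log axis) of Slc25a28, Slc25a45, Slc25a51, Slc25a12 and, chosen after their values were seen, Slc25a44 and Slc25a38, in the fit as reported and in each alternative, with a dashed line at 0.05. Slc25a45 stays below 0.05 throughout, while Slc25a12 lies above it without any 1 of the 6 libraries.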

How the data were processed

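RNA-seq of M1-polarized bone marrow-derived macrophages was compared between NSUN2-KO and NC, 3 libraries each. The authors deposited 1 table of FPKM values with gene lengths in bases. The submitters' processing notes name the tools featureCounts 1.5.0-p3, DESeq2 1.20.0, fastp, CASAVA 1.8 and HISAT2 2.0.5 and the build GRCm38 (mm10). No source states their settings, the annotation release or strand use. Each column was matched to its sample through the titles. FPKM times gene length gave whole reads for 100% of values above 0 (tolerance 0.01 reads). Floors from these reads cover counting error only.

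The 9443 genes averaging 1 FPKM or more entered limma 3.58.1, run in R 4.3.3, as log2(FPKM + 1), which understates the change of low genes, with a mean-variance trend, no covariate and Benjamini-Hochberg adjustment over all of them. Fold changes are NSUN2-KO minus NC. As the labels do not tie libraries to animals, and the design text gives both 3 and 2 replicates, p-values measure the spread between these libraries only. Carrier ratios and the family sum were compared by exact permutation tests (SciPy 1.17.1). Carriers, classes and partner lists were chosen with earlier results of these data known. Values of 1 tested carrier are not reported here, though counts over the family include it. The other carriers are reported, with up to 3 genes of smallest unadjusted p from each partner list, and the checks of Nsun2 and sex-linked genes. Alternatives were another pseudocount (0.1 or 5), filter (none or 5 FPKM), scaling (median ratios or TPM), no trend, voom, a replicate term, protein-coding genes only, a loess correction for GC content (GENCODE vM21) and length (span 0.5), and leaving out each library. Leaving out X and Y genes was added after seeing the data. Median-ratio rescaling had the same factor, 1.004, in every library, so it left the values nearly as deposited and is no separate check. GC content was available for all 47 carriers.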

Additional observations from a re-analysis of the deposited data

How the results depend on the processing

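The count of higher carriers, 1 as reported, was 0 in 4 settings (the replicate number as a block, TPM scaling, no mean-variance trend, no filter) and 0 to 0 when any 1 library was left out. The count of lower carriers, 3 as reported, was 1 to 3 without 1 library and 2 to 4 otherwise, and 1 in the fits without NSUN2-KO replicate 1 or NC replicate 3. Among all genes tested, 802 were called as reported, 265 with no filter, 526 without the trend, 1370 with voom, 351 with the block and 270 to 595 without 1 library. The block left 2 lower carriers, Slc25a28 and Slc25a45. Deviations of same-numbered libraries correlated at -0.0298 to 0.0034 and those of all pairs across groups at -0.0359 to 0.0455, so the numbers were not taken to pair the libraries. Median-ratio rescaling, which could hardly change any value, is counted among the 18 alternatives. Of 492 fold changes of single carriers under the 18 alternatives, 456 kept their direction and their side of the threshold, and 12, in 6 uncalled carriers near 0, changed sign. After the correction for GC content and length these were -0.0261 for Slc25a24, 0.0233 for Slc25a43 and -0.00475 for Slc25a32. Without 1 library they ranged from -0.0654 to 0.0679 for Slc25a24, -0.0481 to 0.0171 for Slc25a17, -0.0735 to 0.0427 for Slc25a10, -0.0892 to 0.0353 for Slc25a43 and -0.0524 to 0.158 for Slc25a13. The causes of these shifts were not tested. The planned count models other than voom were not run on the recovered reads. The least covered tested carrier had 211 reads in its shallowest library.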
